A study of Neurospora crassa with 10 samples.

Results

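Genes of the highest wild-type expression list were followed here where they stood in unbroken runs of 3 or more along a linkage group of the filamentous fungus Neurospora crassa. The 4 deposited expression lists were pooled and sorted by position, and every stretch of at least 3 consecutive genes that all came from the highest list was taken as a run. This gave 166 runs with 590 member genes, out of 2433 genes in the highest list and 9729 listed genes in all. The members were thus chosen by measured expression, through the list each gene was put in. The number and length of runs follow from that choice and are given as a description. No test was run on any measure, so differences between gene groups are given as values only. What the rule did not use is the place of the runs, the length and spacing of their genes, which of the other lists flanks them, and their distance to H3K9me3 domains.

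The study measured histone turnover in germinated conidia through a FLAG-tagged H3 whose expression a light pulse switches on. Its 10 libraries form 5 groups of 2. The deletion strains are ∆hda-1 and ∆dim-2 (both mat a) and ∆hpo and ∆dim-5 (mating type marked as mat ?), and they are set against WT (mat a). All 5 carry Pvvd::hH3-3xFLAG::his-3+, in which the promoter of vvd drives the tagged histone, and all cultures received hydroxyurea, which blocks replication, and then blue light. No value of a single library was analysed here, and read depth is unknown. The lists and the 346 domains are named as wild type, but which strain, culture and light condition the expression ranking comes from is not stated in the labels.

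Genes in fungal genomes lie close together, and neighbours can share regulatory sequence or read into one another. H3K9me3 marks constitutive heterochromatin, which in Neurospora forms over AT-rich, repeat-derived sequence at centromeres, at chromosome ends and in islands along the arms, and it is laid down by the methyltransferase encoded by dim-5. Genes are sparse there.

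Most runs were short, and long ones were few. Of the 166 runs, 110 had 3 genes, 33 had 4, 13 had 5 and 10 had 6 or more, with 8 as the most. Run members made up 24.2% of the highest list and 6.06% of all listed genes, shares that the rule itself fixes. The same rule gave 193 runs of lowest-list genes (964 genes), 144 runs of 25-50% genes (482 genes) and 139 runs of 50-75% genes (471 genes). The highest list thus stood between the lowest list, with 39.6% of its genes in runs and a longest run of 48, and the middle lists, with shares of 19.8% (25-50% list) and 19.4% (50-75% list). Just below the threshold lay 347 pairs of consecutive highest-list genes, and 1149 highest-list genes stood alone. Genes in runs of 3 had a median length of 2694 bp and a median distance to a domain of 43.3 kb, and genes in pairs had medians of 2701 bp and 49.4 kb.

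**Figure D1:**
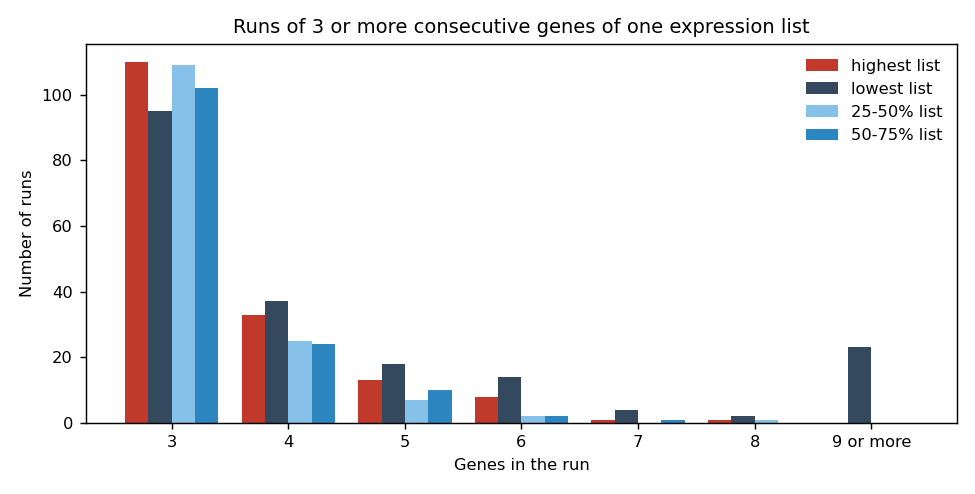
Number of runs (vertical axis) by number of genes in the run (horizontal axis) for the highest, lowest, 25-50% and 50-75% lists. Runs of 9 or more genes are pooled; the highest list has 110 runs of 3 genes and none longer than 8, and all 23 pooled runs are of the lowest list.

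The longest run lay on linkage group I at 2050359 to 2083718 and spanned 33.4 kb. Its 8 genes were NCU01912, NCU01911, NCU01910, NCU01908, NCU01907, NCU01906, NCU01905 and NCU01904, none of which has a symbol in the reference table. Gene lengths ranged from 1213 bp in NCU01904 to 7164 bp in NCU01910, and gaps from 12 to 1666 bp with no overlap. A gene of the 50-75% list, NCU01913 on one side and NCU01903 on the other, closed it at both ends. The nearest domain was 103.1 kb away.

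The run of 7 genes, also on I (9024259 to 9053570, 29.3 kb), started with os-1, the histidine kinase gene of the osmotic stress pathway. It went on with prd-4, a checkpoint kinase gene that affects the circadian clock, and held ham-8, a gene needed for hyphal fusion, before it ended at NCU02809. A gene of the lowest list, NCU02817, preceded it, and NCU02808 of the 50-75% list followed. The run came within 24.0 kb of a domain.

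The other 8 runs of 6 or more genes held further well-known loci. On I, NCU02139 to sod-1 (1116622 to 1136630) ended with a superoxide dismutase gene, NCU09118 to camk-1 (5389944 to 5419355) with a calmodulin-dependent kinase gene, and NCU00673 to vma-11 (7606805 to 7634733) with a subunit of the vacuolar proton pump after nuo9.5 of respiratory complex I and rgf1. The run from tca-12 to NCU16405 (I, 5705413 to 5730503) held hex-1, which encodes the core protein of Woronin bodies, the organelles that plug septal pores. On III, rco-1, a co-repressor gene, opened a run that ended with tca-16 (1904221 to 1922485). On IV, the run NCU07954 to NCU07949 (1228791 to 1256080) contained aod-1, the alternative oxidase gene, and pod-1, whose interval lay entirely inside that of NCU07954. The second run on IV, NCU08288 to NCU08280 (2532983 to 2562669), contained pyr-3, a pyrimidine synthesis gene. The run of 6 on VII, NCU02425 to NCU02420 (2536912 to 2559952), held no gene with a symbol and lay 711 bp from a domain. Of these 10 runs, 6 lay on I, none on II, V or VI.

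**Figure D2:**
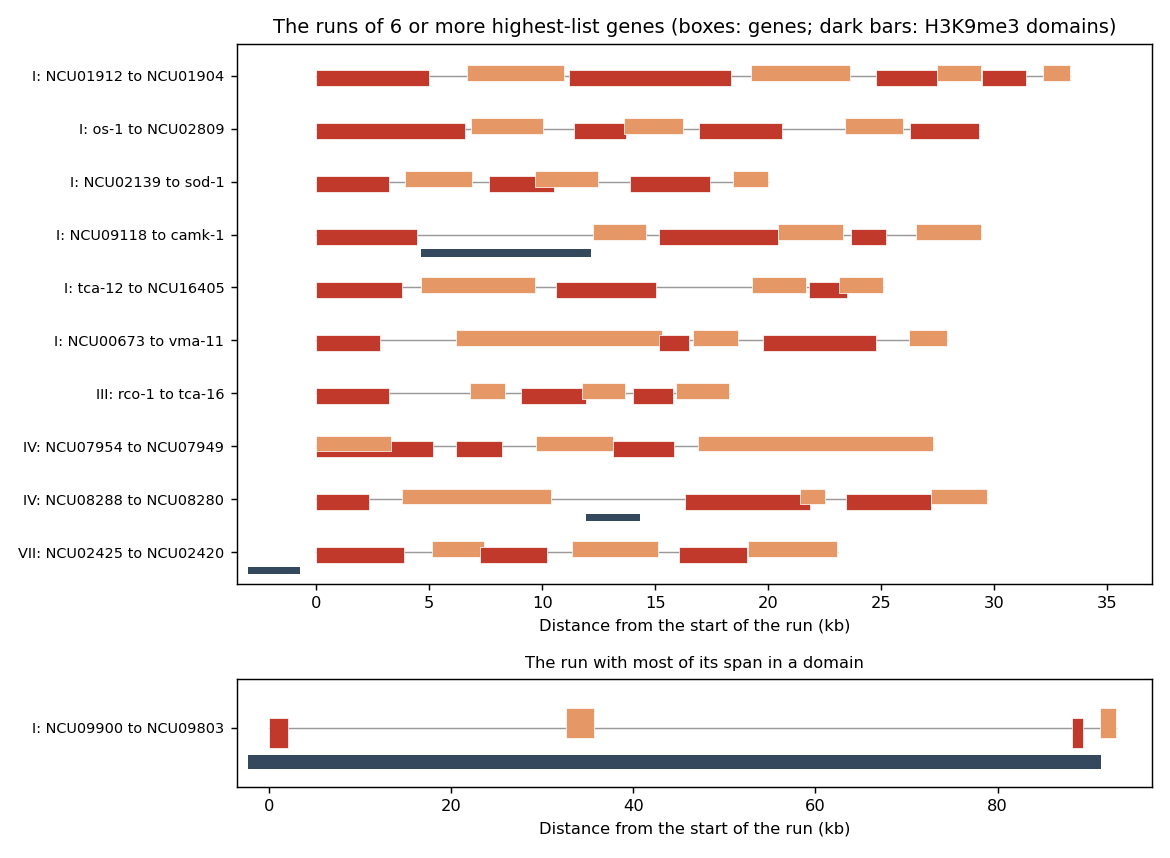
Genes (boxes, in alternating colours and heights) of the 10 runs with 6 or more genes and, in the lower panel, of the run with most of its span in a domain, drawn to scale by distance from the start of the run (kb); dark bars are H3K9me3 domains within 3 kb of the run. Domains lie between members in 2 of the 10 long runs, and the lower run lies in a domain over 91.3 kb of its 93 kb.

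Linkage group I held a larger part of the runs than of the genes. It had 58 of the 166 runs and 221 of the 590 members, with 2346 of the 9729 listed genes. Members were 9.42% of the genes on I and 3.82% (VII) to 6.58% (V) of those on the other linkage groups. Members made up 33.4% of the highest-list genes on I, against 24.4% on V, 23.3% on IV, 21.5% on II, 18.9% on VI, 17.2% on VII and 16.5% on III. The share of genes that belong to the highest list was itself largest on I (28.2%) and smallest on VI (20.3%). How much of the difference in members goes with this share was not tested. Of the 23 runs with 5 or more genes, 13 were on I, 5 on V and none on VI. Runs occurred at 5.92 per Mb on I and at 2.82 per Mb on VII.

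The arms of single linkage groups also differed. Each linkage group was divided at its longest domain into the part before and the part after. On V, none of the 215 genes before the longest domain was in a run, while 104 of the 1365 genes after it were. On II, 3 of 282 genes before and 53 of 746 after it were members, and on IV 3 of 237 before and 77 of 1248 after. On VI the order was the opposite, with 35 members among 702 genes before and 3 among 286 after. In all 4 cases the arm with few members had fewer genes and a smaller share of highest-list genes, for example 18.6% before and 28.3% after the domain on V. In the 4 arms with few members, 0% to 10.3% of the highest-list genes were in runs, against 21.7% to 26.9% in the opposite arms. III and VII differed in part. On III, 6 of 161 genes before the domain and 45 of 1094 after it were members. The smaller arm again had the smaller share of highest-list genes (14.9% before, 26.1% after). It had the larger share of its highest-list genes in runs (25% before, 15.8% after). On VII, 15 of 555 genes before and 25 of 492 after were members, and the arm with fewer genes had the larger share (20.2% after, 13.9% before). On I, members made up 25.7% of the highest-list genes before the domain and 38.1% of those after it.

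**Figure D3:**
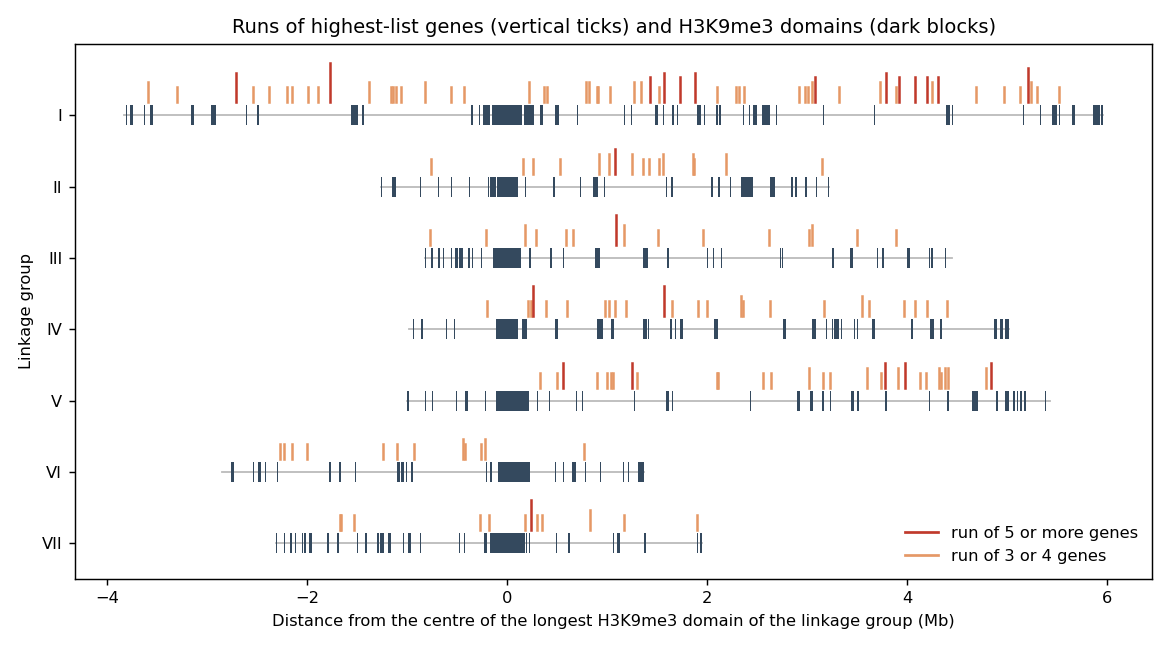
Position of the 166 runs (ticks, whose height grows with the number of genes) and of the 346 H3K9me3 domains (dark blocks) along the 7 linkage groups, as distance in Mb from the centre of the longest domain of each. Run ticks are absent to the left of the longest domain of V, and 13 of the 23 runs of 5 or more genes stand on I.

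Few runs came near a linkage group end. Of the members, 9 (1.53%, Wilson 95% interval 0.805 to 2.87) lay within 100 kb of the outermost listed feature, in 3 runs. The share was 2.77% (2.11 to 3.62) among the other highest-list genes and 3.55% among all genes. The runs concerned were NCU05897 to NCU05900 on VII at 33.5 kb from the end, NCU09514 to NCU09512 on III at 48.6 kb and NCU09475 to aac on II at 70.8 kb. The last of these ends with the gene of the mitochondrial ADP/ATP carrier. No member of a run of 4 or more lay within 100 kb of an end (0 of 260, Wilson upper bound 1.46%). None of the 9 members was on I, and without I the share was 2.44% (1.29 to 4.57) of members, 3.42% (2.59 to 4.51) of the other highest-list genes and 4.36% of all genes. Wilson intervals here cover counting error only and treat genes as independent, although run members are neighbours by definition. The median distance to the end was 1798.4 kb for members, 1595.0 kb for the other highest-list genes and 1492.1 kb for all genes. Within linkage groups, members had the larger median than the other highest-list genes on I, II, IV, VI and VII and the smaller one on III and V.

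Member genes were about as long as other highest-list genes. The listed interval had a median of 2694 bp (interquartile range 2008 to 3678.5) in members, 2722 bp (1991 to 3760.5) in the other highest-list genes and 2129 bp (1454 to 3041) in all genes. Since the members are highest-list genes, the gap to all genes is that of their list. Intervals of 5 kb or more made up 9.83% of members (58 genes), 10.3% of the other highest-list genes and 4.90% of all genes. Intervals under 1 kb made up 1.69% of members, 1.52% of the other highest-list genes and 11.4% of all genes.

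The extremes of length were wide. The longest listed gene of the whole genome, NCU02793 with 34205 bp (I, 9117558 to 9151762), was a member. It stood between so, whose product acts in hyphal fusion, and NCU10282, so that these 3 genes filled 89.9% of a 52.7 kb span. Next came NCU08501 on II with 14047 bp and NCU07702 on IV with 10639 bp. NCU07702 shared its run with cot-3, the gene of translation elongation factor 2. The shortest members were NCU16875 on IV with 574 bp, the clock-controlled gene ccg-1 on V with 772 bp and NCU08677 on IV with 800 bp.

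The median gap inside runs was above that of the genome and the median gap at run edges below it, with widely overlapping interquartile ranges. Wide gaps were not fewer at the edges. Between consecutive members the median gap was 722.5 bp (192.2 to 1588.5, n = 424). From a run to its flanking genes it was 433 bp (110.8 to 1578.8, n = 332), and over all 9722 adjacent pairs it was 635 bp (214 to 1584). Flanking genes were closest where they came from the 25-50% list (median 335 bp, n = 115) or the 50-75% list (406 bp, n = 141) and farther where they came from the lowest list (1212 bp, n = 76). For highest-list genes outside runs the median gap to a gene of another list was 567 bp (n = 2991), also below the genome's. There the lowest list was again the farthest (1083 bp). The 25-50% list (476 bp) and the 50-75% list (448 bp) stood in the opposite order to that at run edges. Pairs of highest-list genes below the threshold had a median gap of 628 bp.

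Neighbouring intervals overlapped inside runs about as often as over all adjacent pairs. Consecutive members overlapped in 57 of 424 pairs (13.4%, 10.5 to 17.0), in 52 of the 166 runs, and the share over all adjacent pairs was 11.6%. At the run edges 57 of 332 pairs overlapped (17.2%, 13.5 to 21.6). From highest-list genes outside runs to a gene of another list the share was 13.5% (12.3 to 14.7). In pairs of highest-list genes below the threshold, 33 of 347 overlapped (9.51%, 6.85 to 13.1). Counted from the end of one gene to the start of the next, the most negative gap was -5146 bp between NCU07954 and pod-1, whose 3311 bp lay wholly within NCU07954. It was followed by NCU04264 and the invertase gene inv on V (-2377 bp), where inv also lay wholly within NCU04264. Next came NCU01296 and NCU01297 on V (-2123 bp). Strand is + in every row of the lists, and whether the ranking counted reads by strand is not given. For overlapping pairs, it is thus unknown whether reads from the shared bases were told apart by gene.

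Genes filled most of the span of a typical run. The median span was 12.6 kb (9.46 to 18.0), of which a median of 82.2% was gene (71.6 to 89.9), and together the runs covered 2492.7 kb or 6.16% of the linkage groups. The tightest was NCU03660 to NCU03662 on V, 99.3% genic over 8.79 kb, and the shortest was NCU03150 to NCU03152 on I (4730146 to 4734648) with 4.50 kb. Gaps of 5 kb or more occurred in 20 of 424 places (4.72%, 3.07 to 7.17), at 22 of 332 run edges (6.63%, 4.42 to 9.83) and in 5.51% of all adjacent pairs. The upper quartiles were alike, and the mean gap was 1514.4 bp inside runs and 2796.0 bp at run edges, where the widest gap was 347790 bp. Of the 20 gaps inside runs, 9 held or touched an H3K9me3 domain. Reference genes that no list contains lay inside runs at 12 of 412 gaps (2.91%), among them 7 tRNA genes, against 5.24% of all adjacent pairs, both counted without the segment of VI whose positions differ from the reference.

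Genes of the 50-75% list were the most frequent neighbours of a run. A flanking gene cannot come from the highest list by the rule, and the other 3 lists are of nearly equal size (2431 to 2433 genes). Over the 332 flank positions, 141 (42.5%, 37.3 to 47.8) were 50-75% genes, 115 (34.6%, 29.7 to 39.9) were 25-50% genes and 76 (22.9%, 18.7 to 27.7) were lowest-list genes. In 4 places 1 gene flanks a run on either side and is counted at both, and with each of the 328 flanking genes counted once the shares were 42.7%, 34.1% and 23.2%. Flanks of pairs were 38.0% 50-75% genes, 34.9% 25-50% genes and 27.1% lowest-list genes, and flanks of highest-list genes that stood alone were 38.0%, 35.4% and 26.5%. Both flanks were lowest-list genes in 9 runs (5.42%), compared with 8.36% of single highest-list genes. No run reached the end of a linkage group. The lowest list takes 33.3% of all genes outside the highest list. Its share of flanks was smaller for runs, and also for pairs (23.9 to 30.5) and single genes (24.8 to 28.4). Lowest-list genes often stood next to each other, with 39.6% in runs of their own list, and the 33.3% does not allow for this. The intervals treat flanks as independent, and no test was made.

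**Figure D4:**
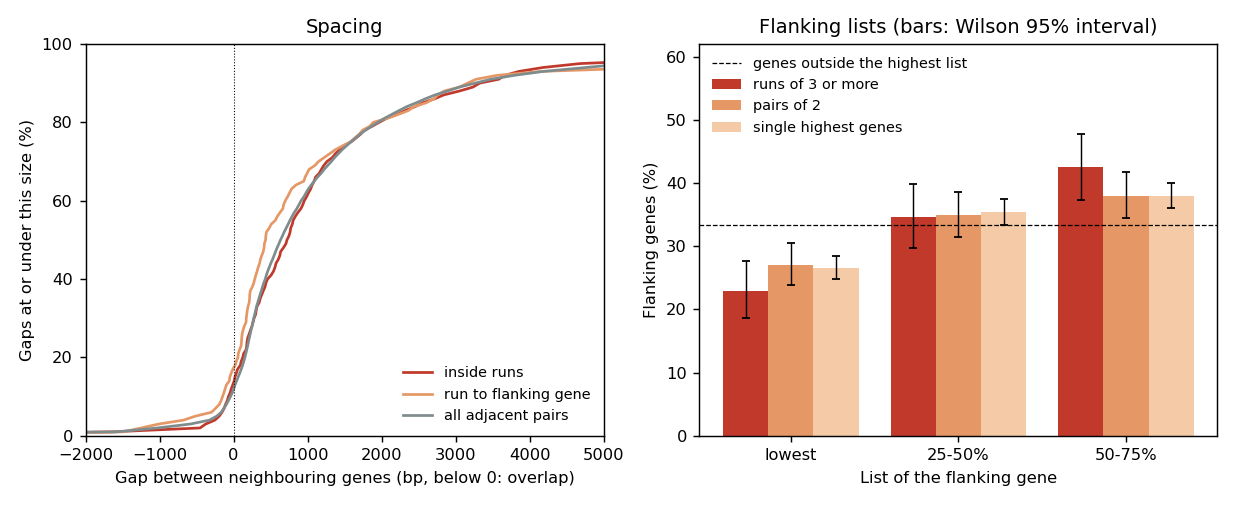
Left, cumulative share of gaps (vertical axis, %) by gap size in bp, for gaps inside runs, from a run to its flanking gene, and over all adjacent pairs; negative gaps are overlaps. Right, share of flank positions held by genes from each of the other 3 lists, for runs, pairs and single highest-list genes, with Wilson 95% intervals; the dashed line is the 33.3% each list takes of genes outside the highest list. Runs have 42.5% of flanks in the 50-75% list and 22.9% in the lowest list.

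In 4 places a single gene separated one run from the next. On II, NCU16568 of the 25-50% list parted the run ending at rpn-8 from that ending at ff-1, with 7 members over 3109506 to 3133622. On V, NCU03682 and NCU04243, both of the 25-50% list, stood between runs that together had 6 and 7 members. On VI, NCU03948 of the 50-75% list parted the run from nuo19.3 to npd-1 from that ending at NCU03944. None of these 4 separating genes was in the lowest list, which held 22.9% of all run flanks. With 4 genes, this is too few for a comparison.

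Members overlapped H3K9me3 domains about as often as other genes. An overlap of at least 1 bp was found for 13 members (2.20%, 1.29 to 3.73), 43 other highest-list genes (2.33%, 1.74 to 3.13) and 2.17% of all genes. In runs of 4 or more the share was 3.46% (1.83 to 6.45), that is 9 of 260 members, 4 of them in 1 run, against 2.16% of highest-list genes outside such runs. Among the 13, the median covered share of the gene was 16.5%, and 3 were covered completely. The other 10 were covered by 3 to 652 bp or, in NCU02438, 797 bp. The 13 genes belonged to 9 runs.

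All 3 completely covered members stood in 1 run on linkage group I, from NCU09900 to NCU09803 (4007554 to 4100551). A single domain, 4005301 to 4098900, held NCU09900, NCU10073 and NCU09802 and reached 93 bp into NCU09803. The 4 genes were consecutive in the lists only because nothing else is listed between them. They filled 8.75% of a 93.0 kb span, with gaps of 30528 and 52470 bp inside the domain. The run lay 68.9 kb from the longest domain of I. Without it, 9 members would remain in overlap, each by part of its length.

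The remaining overlaps each covered part of a gene, but in some of these runs a domain also filled a gap between members. Domains made up 64.3% of the span of NCU05897 to NCU05900 and 61.6% of that of NCU06659 to NCU06661. They made up 53.6% of the span of gh76-2 to NCU04266 and 49.4% of that of bni1 to NCU17019. In the other runs with a partly covered member, the share was 3.52% to 16.3%. On V, al-3, which encodes geranylgeranyl diphosphate synthase of the carotenoid pathway, closed the run NCU01424 to al-3 (4024029 to 4032913) and had 313 bp in a domain. Also on V, NCU04264 (332 bp), NCU17019 (595 bp), NCU01428 (264 bp) and NCU06661 (3 bp) were touched. On I, NCU09265 (438 bp) and NCU03306 (187 bp) were touched, and on VII NCU05899 (652 bp) and NCU02438 (797 bp). NCU02438 opened a run of 3 that ends with the histone gene hH2A (VII, 2482904 to 2488439), at the border of the longest domain of VII, so that hH2A lay 3.49 kb from it.

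A domain also lay between members without touching any of them in 6 runs. These were ptk-2 to NCU01938, NCU09118 to camk-1 and NCU09227 to emp-7 on I, NCU08288 to NCU08280 on IV, NCU08961 to NCU08965 on V and NCU02455 to NCU02452 on VII. In NCU09227 to emp-7 (5911948 to 5948228), 24.9 kb of domain filled the 26204 bp gap before emp-7. With runs broken wherever a domain lay in a gap, 0.713% of the members left overlapped a domain, in place of 2.20%.

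Distance to heterochromatin showed no common pattern over the linkage groups. The median distance to the nearest domain was 45.9 kb in members (15.8 to 99.7), 43.4 kb in the other highest-list genes (15.8 to 93.1) and 38.8 kb in all genes (14.2 to 86.3). Members exceeded the other highest-list genes on I (72.3 against 43.8 kb), II (48.0 against 36.2 kb) and III (69.6 against 52.1 kb) and hardly on VI (42.1 against 41.4 kb). They had the smaller median on IV (39.0 against 55.6 kb), V (30.5 against 43.6 kb) and VII (12.3 against 33.6 kb). Without linkage group I, the median was 37.4 kb in members and 43.3 kb in the other highest-list genes, so the order of the pooled medians rests on I.

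**Figure D5:**
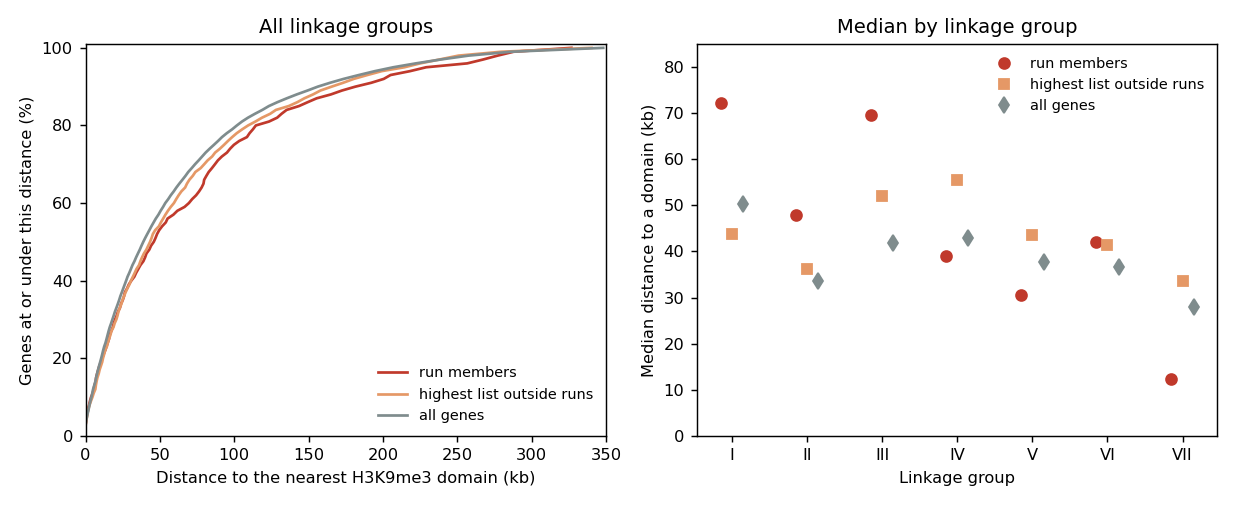
Left, cumulative share of genes (vertical axis, %) by distance to the nearest H3K9me3 domain in kb, for run members, other highest-list genes and all genes. Right, median distance by linkage group for the same groups. Run members lie above the other highest-list genes on I, II, III and VI and below them on IV, V and VII.

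By distance class, 54 members (9.15%) lay outside a domain but under 5 kb from one, 112 (19.0%) at 5 to 20 kb, 134 (22.7%) at 20 to 50 kb and 277 (46.9%) at 50 kb or more. Other highest-list genes had 8.03%, 19.1%, 25.1% and 45.4% in these classes. With overlapping genes included, percentile 12 of the distance was 5.52 kb in members, 6.62 kb in the other highest-list genes and 5.09 kb in all genes. At percentile 10 the members had the smallest value, 3.78 kb. The other highest-list genes had 4.69 kb there and all genes 4.01 kb. Percentile 57 was 59.1 kb in members, 53.7 kb in the other highest-list genes and 49.0 kb in all genes. Counted as whole runs, 9 of 166 overlapped a domain, 23 more came within 5 kb of one, and 72 stayed at least 50 kb away. No matching count for other stretches of genes is given. The closest without overlap was NCU11427 to NCU01845 on II at 6 bp. The farthest was NCU16368 to NCU02558 on I (2718169 to 2734234) at 313.7 kb, and its neighbours NCU02547 to pep and NCU02571 to NCU02573 came next at 286.3 and 284.8 kb. Domain-free segments that held members had a median length of 217.5 kb, compared with 212.4 kb for the other highest-list genes and 199.5 kb for all genes. Within them, members lay at a median of 26.6% of the segment from the nearer domain, as did the other highest-list genes.

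Only on VII did a run touch the longest domain of its linkage group. On VII, 4 runs lay within 100 kb of the longest domain (2134501 to 2483700), among them the run of hH2A at its edge. On III and IV there were 2 each and on I and II 1 each. The nearest of them lay 30.8 kb (III), 89.1 kb (IV), 68.9 kb (I) and 49.6 kb (II) from the domain. The share of other genes within 100 kb is not given here. On V and VI there was none, with the nearest run at 204.4 and 116.6 kb.

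Of the gene groups examined by symbol, light-response and clock genes had the largest share in runs. Of 24 such genes, 19 were in the highest list and 7 of these in runs (36.8%, against 24.2% of the whole highest list). They lay in 7 different runs. The white collar gene wc-2, a subunit of the blue-light receptor, closed the run NCU00904 to wc-2 on I (6810196 to 6819124), 179.0 kb from a domain. The carotenoid synthesis genes al-2 (7920916 to 7924255) and al-1 (8029857 to 8032395) lay in runs of 5 genes on I. The run of al-2 also held os-5, a kinase gene of the osmotic stress pathway, and that of al-1 held hom-1 and the myosin gene myo2. These runs were 194.7 and 184.6 kb from a domain. The clock gene frq (VII, 3131640 to 3136464) lay in a run of 4, NCU02267 to NCU02263, with a 7375 bp gap before it. The other 3 were prd-4, ccg-1 and al-3. With 7 genes, the share has a wide counting error, and no test was made.

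Most groups for constitutive functions had smaller shares in runs than the whole highest list (24.2%). With 1 to 6 members in each group, these shares have a wide counting error, and no test was made. Of 38 highest-list genes of the respiratory chain and ATP synthase, 6 were in runs (15.8%), namely nuo10.5, nuo9.5, nuo78, nuo24, nuo19.3 and qcr8. Of 28 proteasome genes of that list 4 were in runs (14.3%), and 2 of them, the ATPase gene rpt-4 and the core subunit gene pcb-7, shared a run on I (6200201 to 6210424) with gfa1, which encodes the first enzyme of hexosamine synthesis. The others were pcb-3 and rpn-8. Of 12 vacuolar ATPase genes 2 were members, vma-13 and vma-11. Of 28 genes of amino acid synthesis 5 were members (17.9%), leu-4, leu-1, arg-4, ser-7 and lys-5. Single members came from the ribosomal proteins (crp-2, 1 of 10), the histones (hH2A, 1 of 7) and the housekeeping genes (hsp80, 1 of 8). Chaperones had 2 of 8 (25%), hsp80 again and hsp70-2. None of the 10 genes of heterochromatin formation was in the highest list, so none could be a member.

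Several members act in signalling and hyphal fusion. They were picked from the names after the results were in view, and no count of such genes was made. The MAP kinase genes os-2 (IV, 4948586 to 4952179) and mak-2 (VII, 2654598 to 2657461), and mek-2 (V, 1501026 to 1504190), which encodes the kinase that acts on the product of mak-2, each lay in a run of 3. The fusion genes ham-7, ham-9 and ham-10 on I were members besides ham-8 and so. The adenylyl cyclase gene cr-1 closed a run of 5 on I, the calmodulin gene cmd was in a run of 4 on V, and the G protein beta subunit gene gnb-1 in a run of 4 on III. The carbon catabolite repressor gene cre-1 (IV) and the Argonaute gene qde-2 (VI) lay in runs of 3. A symbol besides the locus tag was held by 127 members (21.5%), 23.2% of the other highest-list genes and 11.5% of all genes.

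Members were spread through the whole highest list. The files do not say how its rows are ordered. The 10 ribosomal protein genes stood between rows 93 and 324 of 2433 and the 8 housekeeping genes between rows 2 and 493, while proteasome genes had a median row of 1406.5. Members had a median row of 1226 (645.2 to 1826.5) and the other highest-list genes one of 1212 (601.5 to 1824.5). The first 608 rows held 24.1% of members and 25.3% of the other highest-list genes, and the last 608 rows 25.1% of members and 25% of the others. Among the first 50 rows were 11 members, including the phosphoglycerate kinase gene pgk at row 36, inv at row 30 and cot-3 at row 38. Rows of neighbouring members differed by a median of 770.5, those of paired highest-list genes by 680, and those of consecutive highest-list genes with other genes between them by 694. The run of hsp80 shows this range, with fkr-2 at row 168, hsp80 at row 238, stk-26 at row 2161, NCU04144 at row 1138 and NCU04145 at row 1914.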

How the data were processed

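The files used were the authors' deposited gene intervals, in 4 lists that divide genes by expression in wild type, and their deposited intervals of H3K9me3 domains. The values used were start and end positions in bp. SICER, Bowtie2, HOMER and deepTools are named in the submitters' processing notes. Versions, settings, genome build and the unit of the ranking are not stated there or in the files. List names were read as percentiles that rise with expression. File starts were taken as 0-based, so printed starts are 1 higher. Domain ends were taken as included, since 337 of 346 lengths were then multiples of 300 bp, and 10 empty rows were skipped.

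Genes were sorted by supercontig, start and end, and the 7 supercontigs are called linkage groups I to VII. Names came from RefSeq's NC12 table, by identical position for 9490 genes and by mirrored position for 238 on VI between 1851685 and 2769626, which held 17 members in 5 runs. Coordinates are those of the files. The table has no strand, and no sequence was read.

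A gap is the number of bases between the end of a gene and the start of the next, negative where they overlap. Distances run from gene edge to domain edge, with 0 for overlap. Ends are the outermost listed feature. Values were computed with Python 3.11.15, pandas 2.3.3, numpy 2.4.6 and scipy 1.17.1, and the functions were tested on simulated data. Wilson intervals are at 95%. No test was run, since genes are not replicates.

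The members, 10 gene groups by symbol and rules were chosen with earlier results of these data known. Named genes were those in runs of 6 or more, members overlapping a domain, extremes of length, gap, span and distance, and members of the gene groups; others were chosen after their values were seen.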

Additional observations from a re-analysis of the deposited data

How the results depend on the processing

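Alternatives changed the run length required, the genes counted, the way runs were broken, the order of genes, the domains used and the linkage groups included. Several keep most of the same members, such as those that leave out 1 linkage group, so agreement is in part built in. Intervals of medians were taken from ranked values and treat genes as independent. Of 159 values for run members, 145 stayed within 1.5 times the count reported or within its 95% interval. Gene length (2676.5 to 2729 bp), row position (1190.5 to 1260) and the share of flanks in the lowest list (19.6 to 26.1%) and in the 25-50% list (32.7 to 38.9%) did so under all 14 alternatives tried for each.

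With at least 2 consecutive genes there were 513 runs and 1284 members, with at least 4 there were 56 and 260, and without linkage group I 108 and 369, by construction. Within 100 kb of an end lay 0% of members with at least 4 genes and 2.44% without linkage group I. Where 1 gene of the 50-75% list was allowed inside a run, the median gap was 558 bp and the 50-75% list held 35% of flanks, since such genes no longer ended runs. Domain overlap was 0.713% with runs split at domains, a setting that itself drops members beside a domain. It was 0.508% with 50% of the gene required, 3.46% with at least 4 genes and 5.76% with genes widened by 1 kb. For other highest-list genes the last 3 settings gave 0.326%, 2.16% and 4.61%. The median distance to a domain was 37.4 kb without linkage group I and 68.6 kb with domains of 3 kb or longer only, where other highest-list genes had 43.3 and 55.9 kb. Counting each flanking gene once, and leaving linkage group I out of the end shares of other genes, were added after seeing the data. No paired analysis was possible because the deposited lists carry no replicate and no library value was analysed. Read depth is unknown, and the lists give no expression level.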
